A study of Sus scrofa with 3 samples.

Results

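The miRNAs of porcine psoas major muscle were compared between 63 d and 98 d of age, in the fattening period. The comparison took 2 of the 3 small RNA libraries of the study, and its members were all 1036 known miRNA names with reads in either library. The pigs were castrated male Landrace × Large White × Duroc hybrids, and the labels distinguish the groups by age alone. A library was made from the pooled RNA of 6 pigs, with 1 library per age. The spread between pigs was thus not measured, the library and the age cannot be told apart, and no test was made. A fold is the ratio of reads per 1000000 counted reads (RPM) at 98 d to that at 63 d, and the 95% interval after it (Clopper-Pearson, exact) covers counting error only. In whole muscle, fewer cells of a type and less RNA per cell cannot be told apart.

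MiRNAs are short RNAs cut from hairpin precursors, each of which can yield a mature miRNA from its 5p arm and another from its 3p arm. Bases 2 to 8, the seed, do most of the pairing with target mRNAs, so that miRNAs with a shared seed form a family. Hairpins that lie close together are often cut from 1 primary transcript. In skeletal muscle, miR-1, miR-133 and miR-206 act on the proliferation and differentiation of myoblasts, and miR-208b and miR-499 lie in introns of myosin heavy chain genes.

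The sequences on which the comparison turned are given 5′ to 3′ with the seed in capitals, as the deposited files write the known mature miRNAs, with T for U. The first share the seed of the miR-15 family, whose members differed in direction.
ssc-miR-195: tAGCAGCAcagaaatattggc
ssc-miR-16: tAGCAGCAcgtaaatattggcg
ssc-miR-15a: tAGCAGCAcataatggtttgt
ssc-miR-497: cAGCAGCAcactgtggtttgt
ssc-miR-424-5p: cAGCAGCAattcatgttttgaa
ssc-miR-15b: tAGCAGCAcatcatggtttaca

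The miR-450 members of 1 genomic cluster, which had the highest median fold of all clusters, carry a pair of seeds that differ in 1 base.
ssc-miR-450a: tTTTGCGAtgtgttcctaatat
ssc-miR-450c-5p: tTTTGCGAtgtgttcctaatac
ssc-miR-450b-5p: tTTTGCAAtatgttcctgaata

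MiR-1 and miR-206 share a seed, and miR-133a-3p had the most reads of all names.
ssc-miR-1: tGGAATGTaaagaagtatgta
ssc-miR-206: tGGAATGTaaggaagtgtgtga
ssc-miR-133a-3p: tTGGTCCCcttcaaccagctg

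The let-7 members shown next have 1 seed and differed in fold.
ssc-let-7a: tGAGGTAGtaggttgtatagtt
ssc-let-7f: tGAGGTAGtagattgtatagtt
bta-let-7b: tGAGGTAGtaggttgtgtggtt

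The last are abundant miRNAs whose family sum was at least 1.5-fold higher by RPM (miR-26a and miR-10b) or lower (miR-378 and miR-92a) at 98 d.
ssc-miR-26a: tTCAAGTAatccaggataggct
ssc-miR-10b: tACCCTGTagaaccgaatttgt
ssc-miR-378: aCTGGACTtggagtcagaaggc
ssc-miR-92a: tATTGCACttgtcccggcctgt

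Each name was counted at 1 hairpin, which gave 1019622 reads at 63 d and 1785673 at 98 d. Over all hairpins the known names had 1460422 and 2412217 reads. Of the names with at least 20 reads over both libraries, 31 were listed at several hairpins. For these the reads at 1 hairpin can be a part of all their reads, and levels in RPM depend on this rule. A count of 0 allows up to 3 reads, or 2.94 RPM at 63 d and 1.68 RPM at 98 d. Of the 1036 names, 489 had at least 20 reads over both libraries. Their median fold was 1.08, and 253 lay within 1.5-fold of equality. At least 2-fold higher at 98 d were 51 names (10.4%) and at least 2-fold lower 36 (7.36%), and the whole interval lay past 2-fold for 23 and 15 of them. With TMM scaling (edgeR) the median log2 fold shifted by -0.11, and 45 names were higher and 48 lower, so that folds between 1 and 1.08 in the text lie below 1 under that scaling. Of the 225 names with at least 100 RPM in both libraries, 10 (4.44%) were at least 2-fold higher and 8 (3.56%) at least 2-fold lower.

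**Figure D1:**
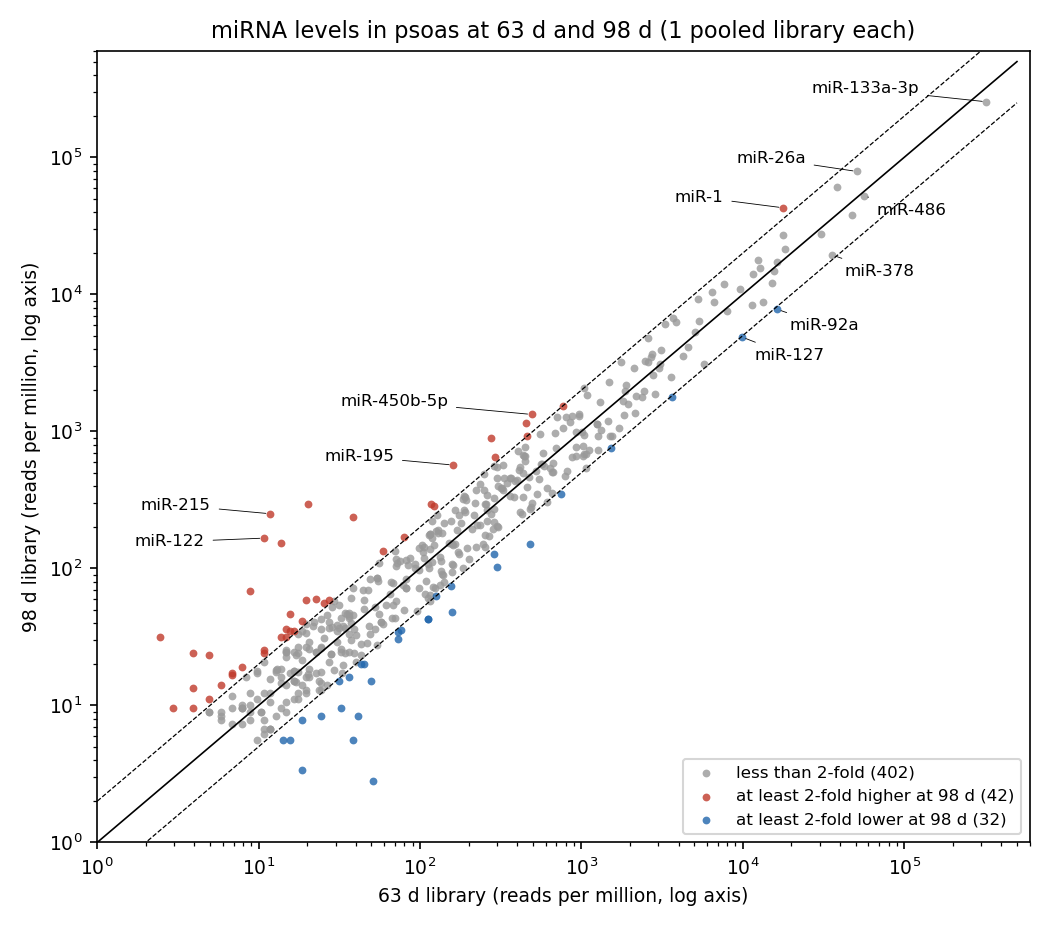
Level of each miRNA in RPM at 63 d (x axis) and 98 d (y axis), both log axes, for names with at least 20 reads over both libraries and reads in each. The solid line marks equal levels and the dashed lines 2-fold, past which lie 42 names that were higher and 32 that were lower.

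Some folds of single names come with a change of name. Of the 489 names, 13 had reads in 1 library only, and for 12 of these the other file listed the same first bases under another name. MiR-380 of the DLK1-DIO3 region, joined over its names, had 850 and 1842 reads and a fold of 1.24 (1.14 to 1.34). MiR-503 had 26 and 87 reads and a fold of 1.91 (1.22 to 3.09). The epithelial miR-200a and miR-141, which begin with the same bases, had 128 and 390 reads and a fold of 1.74 (1.42 to 2.14) together. Isoforms of abundant miRNAs also carried names of other species. The name bta-let-7a-5p had 282 and 1601 reads, with a mapping error in every one, and a fold of 3.24 (2.85 to 3.69). The name oan-let-7e-5p had 487 and 270 reads and a fold of 0.317 (0.272 to 0.368), and the share of its reads with a mapping error was 8.21% at 63 d and 53.3% at 98 d. For bta-miR-378 that share was 34.8% and 98.6%, with a fold of 0.535 (0.515 to 0.555). Sums over a family join such names.

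The tissue label was checked with marker miRNAs. All 6 skeletal muscle markers had at least 20 reads, and their sum was 349590.2 and 308445 RPM at 63 d and 98 d. The liver miRNA miR-122 had 11 and 297 reads (10.8 and 166 RPM), a fold of 15.4 (8.49 to 31.2). Other miRNAs known from liver and gut were higher too: miR-192 had 39 and 427 reads and a fold of 6.24 (4.49 to 8.90), and miR-215 had 12 and 448 reads and a fold of 21.3 (12.1 to 41.6). MiR-194b-5p had 3 and 56 reads, a count at 63 d that is within the limit of a count of 0. Of 7 epithelial markers 6 had at least 20 reads, miR-200c having 1 and 5, and their sum was 787 and 1248 RPM. The sums were 8381 and 13229.7 RPM for the endothelial miR-126, 1882 and 2481 RPM for 4 white blood cell markers, 58330.4 and 55153 RPM for 3 red blood cell markers, 4720.2 and 5928 RPM for 3 fibroblast markers and 13525 and 16079.7 RPM for 2 smooth muscle markers. The neuronal miR-9 had 1796 and 5765 reads and a fold of 1.83 (1.74 to 1.93), the name miR-124 had 4 reads in each library, and miR-124a had 118 and 247 reads and a fold of 1.20 (0.956 to 1.5). Most of the red blood cell sum was miR-486, which is abundant in muscle too, with 57388 of 59475 reads at 63 d and 93531 of 98485 at 98 d. The other red blood cell markers were higher at 98 d, miR-451 with 1081 and 1850 RPM and miR-144 with 79.4 and 170 RPM. The part of other cell types in the folds below was not tested.

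The 10 names with the most reads took 63.6% of the counted reads at 63 d and 62.2% at 98 d, and of these miR-1 alone passed 2-fold. MiR-133a-3p, which promotes the proliferation of myoblasts, had 323221 and 254484 RPM and a fold of 0.787 (0.784 to 0.791). MiR-486, abundant in muscle and red blood cells, had 56284 and 52379 RPM and a fold of 0.931 (0.921 to 0.940). MiR-22, listed as aja-miR-22, had 47317 and 38062 RPM and a fold of 0.804 (0.795 to 0.814). The other names of the 10 are given with their families.

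The muscle miRNAs did not go together. MiR-1, which promotes the differentiation of muscle cells, rose from 18128 reads (17779 RPM) to 76517 reads (42851 RPM), a fold of 2.41 (2.37 to 2.45). MiR-206, of the same seed, had 2726 and 3679.8 RPM and a fold of 1.35 (1.29 to 1.41), which was below 1 from reads without mapping error. MiR-133a-5p, from the hairpin of miR-133a-3p, had 638 and 536 RPM and a fold of 0.840 (0.761 to 0.931), so that both arms of miR-133a lay below equality. MiR-133b, which is cut from the same precursor transcript as miR-206, had 1902 and 2185 RPM and a fold of 1.15 (1.09 to 1.21). Both myosin gene miRNAs had higher levels at 98 d, miR-208b with 768 and 1538 RPM and a fold of 2.00 (1.85 to 2.17) and miR-499-5p with 1485 and 2282 RPM and a fold of 1.54 (1.45 to 1.63). With TMM scaling miR-208b had 1.86, short of 2-fold. Of 15 muscle names, 9 lay above the median fold of all names, beside 49.9% of all names. In a cluster with miR-133a on chromosome 6 (chr6:99481915-99485289, plus strand), the name bta-miR-1 had 16 and 83 reads and a fold of 2.96 (1.72 to 5.42), opposite to miR-133a.

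The reads of miR-1 and miR-206 differ from the known sequences. These begin with TGGAAT, and 0 representative reads of the 1087 arms listed at 63 d and the 1255 at 98 d did so. The representative read of both miRNAs carried G3T in both libraries, counted from 1 at the 5′ end of the known miRNA. Reads without mapping error were 4.46% of the miR-1 reads at 63 d and 4.41% at 98 d, and 6.69% and 4.67% for miR-206. From these reads alone the fold of miR-1 was 2.42 and that of miR-206 was 0.957, which turns the direction of miR-206. The 3′ adapter of the TruSeq small RNA kit is known to begin with the same bases, and reads lost to its trimming were not tested. The printed levels of both miRNAs may be too low, and the direction of miR-206 is uncertain.

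Sums over families and lists by arm gave 52 units, of which 16 (30.8%) were at least 1.5-fold higher at 98 d and 4 (7.69%) at least 1.5-fold lower. With TMM scaling these were 13 and 5, since the 5p names of miR-26 and miR-10 and the 3p names of miR-148 fell short of the limit and the 5p names of miR-181 passed it with 0.642.

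**Figure D2:**
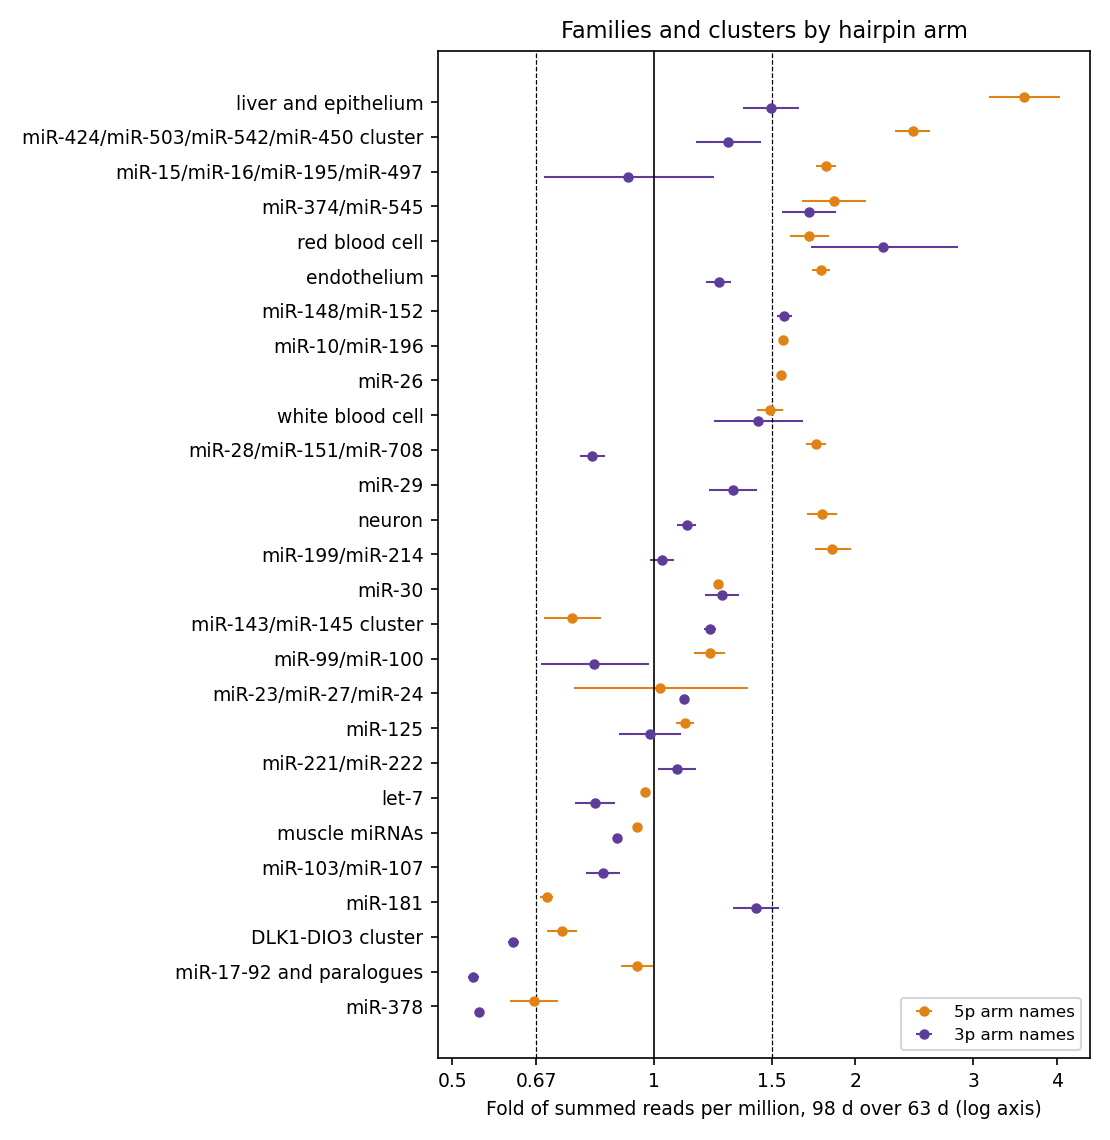
Fold of the summed RPM at 98 d over 63 d (x axis, log) for families and lists with at least 200 reads on an arm, 5p names in orange and 3p names in purple. Horizontal bars are 95% counting intervals and dashed lines mark 1.5-fold. The 3p names of miR-378, miR-17-92 and DLK1-DIO3 lie lowest, at 0.548, 0.538 and 0.617.

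The miR-15 family, which holds back the cell cycle by repressing cyclins, was higher at 98 d. The 5p names of miR-15, miR-16, miR-195 and miR-497 summed to 4365 and 7891 RPM, a fold of 1.81 (1.75 to 1.87). MiR-16 had 3359 and 10799 reads and a fold of 1.84 (1.77 to 1.91), and miR-15a had 459 and 1363 reads and a fold of 1.70 (1.52 to 1.89). MiR-195 and miR-497, which share a primary transcript, had 164 and 1014 reads with a fold of 3.53 (2.99 to 4.19) and 194 and 595 reads with a fold of 1.75 (1.49 to 2.07). The fold of miR-195 was the largest of the 225 names with at least 100 RPM in both libraries. MiR-424-5p carries the same seed and had 130 and 438 reads and a fold of 1.92 (1.58 to 2.36). Against these stood miR-15b, with 272 and 307 reads and a fold of 0.644 (0.546 to 0.762). Over the 11 names with this seed its share of the counted reads was 0.466% at 63 d and 0.839% at 98 d.

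The let-7 family, known to repress cell cycle genes and growth factor signalling, was near equality as a sum and differed within. Its 5p names had 97153 and 94314 RPM and a fold of 0.971 (0.963 to 0.978). Let-7a had 30452 and 27406 RPM and a fold of 0.900 (0.887 to 0.913). Let-7f had 12459 and 17799.9 RPM and a fold of 1.43 (1.40 to 1.46), above equality, while let-7i had 11476 and 8383 RPM and a fold of 0.730 (0.713 to 0.748). The fold was 1.13 (1.11 to 1.16) for let-7g and 0.790 (0.774 to 0.806) for bta-let-7b. Of these 5, let-7f has the lowest GC content (31.8%) and bta-let-7b the highest (45.5%). The share of bta-let-7b reads with a mapping error was 100% at 63 d and 99.998% at 98 d. Its fold thus rests on reads that differ from its known sequence, to which the GC content refers.

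MiR-26, a regulator of the cell cycle, and miR-10, whose hairpins lie in HOX gene loci, passed 1.5-fold in RPM. The 5p names of miR-26 had 58704 and 90824 RPM and a fold of 1.55 (1.53 to 1.56), with 51042 and 78881 RPM for miR-26a and folds of 1.55 (1.53 to 1.56) for miR-26a and 1.56 (1.52 to 1.60) for bta-miR-26b. MiR-10b had 38254 and 60481 RPM and a fold of 1.58 (1.56 to 1.60), and miR-10a-5p had 3876 and 6284 RPM and a fold of 1.62 (1.56 to 1.68), so the intervals of this pair overlap. With TMM scaling the 5p folds were 1.44 for miR-26 and 1.45 for the list of miR-10 and miR-196, both short of 1.5-fold. The other HOX miRNAs, of another seed, lay lower, with a fold of 1.02 (0.925 to 1.14) for miR-196a and 0.744 (0.682 to 0.813) for miR-196b-5p.

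In further families the members split. MiR-148a-3p had 6459 and 10456 RPM and a fold of 1.62 (1.57 to 1.67) and miR-152 a fold of 1.56 (1.40 to 1.74), whereas miR-148b-3p, of the same seed, had 1.09 (0.991 to 1.19). The 5p names of miR-30 had a fold of 1.25 (1.24 to 1.26). Within them miR-30b-5p had 1.86 (1.78 to 1.95), miR-30e-5p 1.52 (1.5 to 1.55), miR-30a-5p 1.17 (1.15 to 1.19) and miR-30d 0.951 (0.933 to 0.970), none overlapping its neighbour in this order. The miR-181 5p names, known from muscle differentiation and lymphocytes, had a fold of 0.691 (0.677 to 0.706), and their 3p names 1.42 (1.31 to 1.54). Within the 5p names miR-181a had 0.661 (0.646 to 0.676), while miR-181c went against the sum. It had 265 and 609 reads and a fold of 1.31 (1.13 to 1.52).

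Of the families at least 1.5-fold lower, miR-378 was the most abundant. It lies in an intron of the gene of the metabolic coactivator PGC-1β. The 3p names had 41907 and 22969 RPM and a fold of 0.548 (0.541 to 0.556), and the 5p names 1045 and 692 RPM and a fold of 0.662 (0.609 to 0.719), so both arms were lower. The porcine name had 36536 and 34591 reads and a fold of 0.541 (0.533 to 0.549). The 7 names of the family with at least 20 reads had folds from 0.0549 to 14.6, with 1 at least 2-fold higher and 1 at least 2-fold lower. Against the sum, bta-miR-378b had 21 and 525 reads. Whether reads changed name within the family was not tested.

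Among the miR-17-92 cluster and its paralogues, known from proliferation, miR-92a made up most of the 3p reads. The 3p names had 20462 and 10998 RPM and a fold of 0.538 (0.527 to 0.548). MiR-92a fell from 16318 to 7784 RPM, a fold of 0.477 (0.466 to 0.488). MiRNAs of the same seed lay closer to equality, bta-miR-25 with 2194 and 1827 RPM and a fold of 0.833 (0.789 to 0.879) and miR-92b-3p with 543 and 451 RPM and a fold of 0.831 (0.745 to 0.927). The 5p names had a fold of 0.943 (0.892 to 0.996). Of 17 names, 14 lay below the median of all names and 3 above it, beside 49.9% of all names above. MiR-92a alone was at least 2-fold lower, as were 7.36% of all names.

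The DLK1-DIO3 region is an imprinted locus whose many miRNAs come from the maternal chromosome, and it is known from muscle growth in sheep. Its 3p names had 18183 and 11211 RPM and a fold of 0.617 (0.604 to 0.629), and its 5p names 2485 and 1810.0 RPM and a fold of 0.728 (0.691 to 0.767). Of 51 names with reads in both libraries 36 lay below the median of all names and 14 above, and 8 were at least 2-fold lower and 0 at least 2-fold higher. Of all 476 names with reads in both libraries, 32 were at least 2-fold lower and 42 higher. With names read in 1 library only, 10 of 55 were lower and 2 higher, beside 7.36% and 10.4% of all 489 names. The median fold of the 51 names was 0.692, beside 1.08 over all names. MiR-127 had 10062 and 8724 reads and a fold of 0.495 (0.481 to 0.510), bta-miR-381 3648 and 4422 reads and a fold of 0.692 (0.662 to 0.723), and mmu-miR-370-3p 161 and 86 reads and a fold of 0.305 (0.232 to 0.399). MiR-369 went against these with 372 and 818 reads and a fold of 1.26 (1.11 to 1.42).

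Genomic clusters were formed from hairpins on 1 strand with neighbours within 10000 bases, and positions are on Sscrofa10.2. A member is 1 arm of a hairpin, with the reads of all names listed on it. Of 31 clusters with at least 3 members of 20 reads or more, 5 had every member above the median fold of all names and 3 had every member below it. Of all names 49.9% lay above that median. Clusters may have as few as 3 members, and both arms of a hairpin count as members. How many clusters would lie on 1 side without a link between members was not tested.

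**Figure D3:**
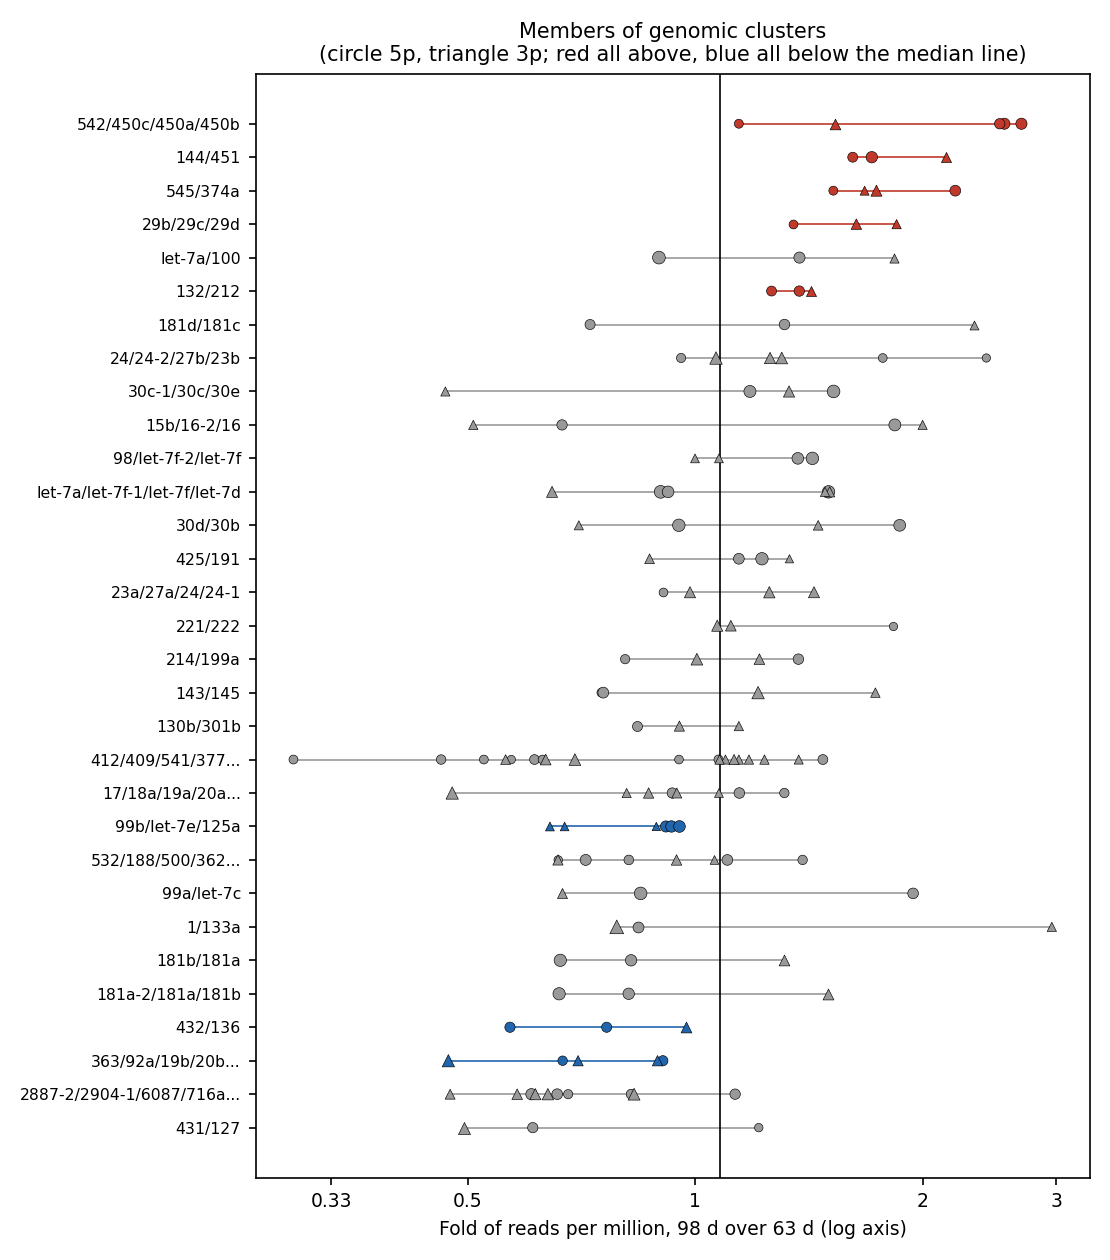
Fold at 98 d over 63 d (x axis, log) for the members with at least 20 reads of 31 genomic clusters, 1 line per cluster in order of median fold. Circles are 5p and triangles 3p arms, larger symbols have more reads, and the vertical line is the median of all names (1.08). The miR-450 cluster has the highest median, 2.53.

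The cluster of miR-542 and miR-450 spans 1113 bases of a sequence assigned to no chromosome in the files, and its 5 members had a median fold of 2.53. MiR-450b-5p had 502 and 2374 reads and a fold of 2.70 (2.45 to 2.98), miR-450c-5p 461 and 2067 reads and 2.56 (2.32 to 2.84), and miR-450a 119 and 525 reads and 2.53 (2.07 to 3.12). MiR-542-3p had 306 and 819 reads and a fold of 1.53 (1.34 to 1.75), below the intervals of the miR-450 names. MiR-450a and miR-450c-5p differ at the 3′ end only and may share reads. The list that adds miR-424 and miR-503, which lie in the same cluster in mammals, had a 5p fold of 2.44 (2.30 to 2.59) and a 3p fold of 1.29 (1.15 to 1.45). Of its 8 names with reads in both libraries 7 lay above the median of all names and 1 below it, at 0.708.

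The erythroid cluster of miR-144 and miR-451 on chromosome 12 (chr12:47176951-47177182, plus strand) had folds of 2.14 (1.67 to 2.77) for miR-144 and 1.71 (1.60 to 1.83) for miR-451, with 81 and 304 reads and 1102 and 3304 reads. MiR-486 had a fold of 0.931, and after the adjustment for GC content described with the base composition it had 1.25, beside 1.53 for miR-144 and 1.35 for miR-451. On chromosome X (chrX:67530183-67530471, minus strand) the 4 arms of miR-545 and miR-374a lay between 1.52 and 2.21, with 299 and 1156 reads for miR-374a-5p. The cluster of miR-29b and miR-29c (chr9:148552438-148553094, plus strand), known to target collagen mRNAs, lay between 1.35 and 1.85, and that of miR-132 and miR-212 (chr12:50015711-50016252, minus strand) between 1.26 and 1.42.

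Of the clusters with every member below the median, that of miR-106a to miR-363 on chromosome X (chrX:126199342-126200263, minus strand) lay between 0.471 and 0.906. In the cluster of miR-99b, let-7e and miR-125a (chr6:51858217-51858933, plus strand) the main arms had folds of 0.915 (0.846 to 0.989), 0.930 (0.877 to 0.986) and 0.953 (0.911 to 0.997). The last, with miR-432 and miR-136 (chr7:132078995-132079280, plus strand), lies in the DLK1-DIO3 region and lay between 0.569 and 0.972. Other clusters with miRNAs of that region were mixed. That of bta-miR-381, with 19 arms on a sequence assigned to no chromosome, had 12 below the median and 7 above. Its median fold was 0.952, and bta-miR-411c-5p in it had 1.48 (1.12 to 1.96). The cluster of miR-431 and miR-127 on chromosome 7 had 2 arms below and 1 above.

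Neighbours in a cluster could also lie apart. In the miR-17-92 cluster (chr11:66610056-66610846, plus strand) miR-92a had a fold of 0.477 (0.466 to 0.488), while miR-17-5p had 0.933 (0.783 to 1.11), miR-19b 0.868 (0.735 to 1.03) and miR-20a 1.14 (1.000 to 1.31). MiR-92a and miR-19b share their reads with the copies on chromosome X. MiR-15b and miR-16 lie within 243 bases (chr13:108388133-108388375, plus strand) and split on both arms. The 5p arm had a fold of 0.667 (0.566 to 0.786) in miR-15b and 1.84 (1.77 to 1.91) in miR-16, and the 3p arm 0.509 (0.339 to 0.762) and 2.00 (1.20 to 3.47). Reads of the miR-16 5p arm can also come from its other hairpin. In the pair of miR-30d and miR-30b (chr4:6713514-6717724, plus strand) the 5p arms had 0.951 (0.933 to 0.970) and 1.86 (1.78 to 1.95). In the cluster of miR-99a and let-7c (chr13:191558609-191559440, plus strand) the fold was 1.94 (1.69 to 2.24) for miR-99a and 0.847 (0.833 to 0.861) for the let-7c arm. The reads of the let-7c arm include those of other let-7 names listed there, so this is not the fold of let-7c alone.

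The paralogous miR-23 clusters could be set side by side. In the miR-23a cluster (chr2:65581838-65582254, plus strand) the folds were 1.44 (1.31 to 1.57) for miR-23a, 1.25 (1.17 to 1.34) for miR-24-3p and 0.984 (0.911 to 1.06) for miR-27a. In the miR-23b cluster (chr10:31340334-31341196, minus strand) they were 1.30 (1.24 to 1.36) for miR-23b and 1.07 (1.05 to 1.09) for miR-27b-3p, and miR-24-3p has the same mature sequence in both. The intervals of miR-23a and miR-23b overlap. A cluster on chromosome 6 (chr6:866649-870551, minus strand) of names such as mir-2904 and sha-mir-716a had 9 of 10 arms below the median and a median fold of 0.648. Except for ssc-mir-4332 these are names of other species, and whether they are miRNAs of the pig was not tested. Their arms have a GC content of 68.2% or more, except for sha-mir-716a-p3 with 40.9%.

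Both arms were compared in 106 hairpins with at least 20 reads over both libraries on each arm. In 69 both arms lay on the same side of the median of all names. The log2 folds of the arms had a Pearson correlation of 0.389 and a Spearman correlation of 0.426 over the 106 hairpins, which all come from the same pair of libraries. The ratio of 5p to 3p reads changed at least 2-fold in 15 hairpins (14.2%), towards the 5p arm in 9 and towards the 3p arm in 6.

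**Figure D4:**
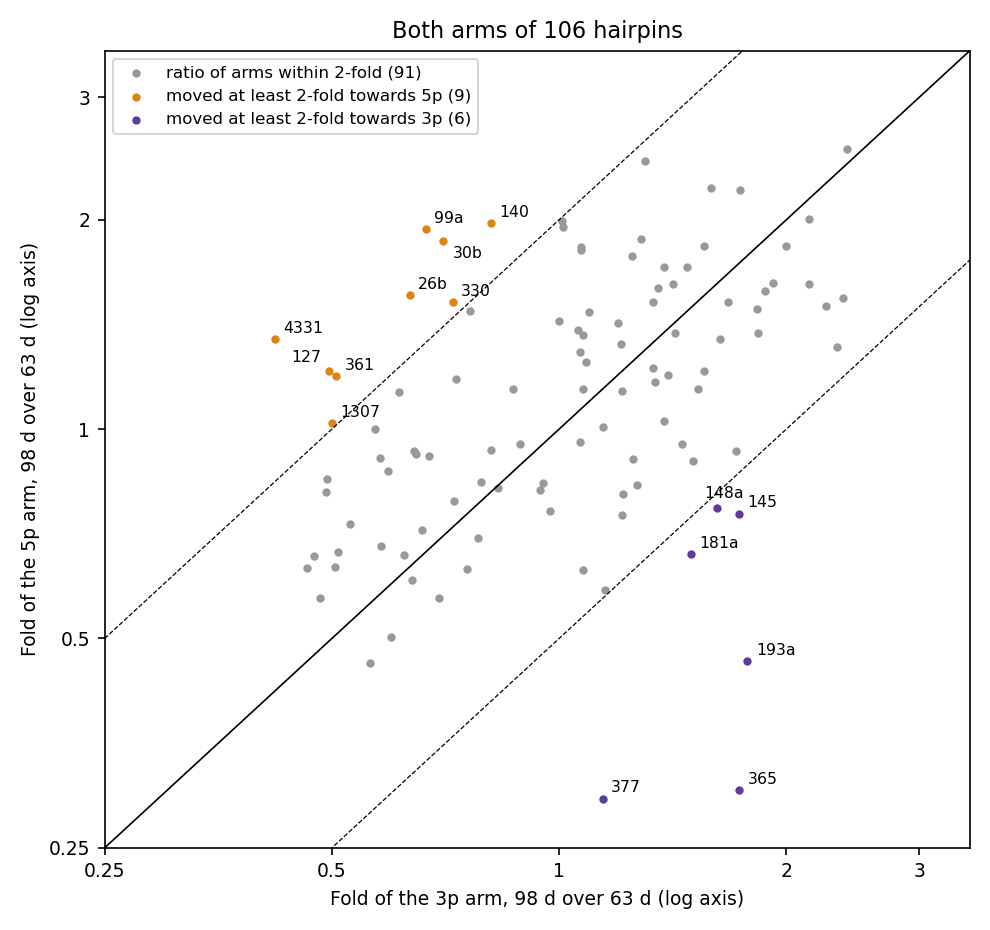
Fold of the 3p arm (x axis) and of the 5p arm (y axis) at 98 d over 63 d, both log axes, for 106 hairpins. The solid line marks equal folds and the dashed lines a 2-fold difference between the arms, and the 15 hairpins past them are named.

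Towards the 3p arm the largest change was in miR-365, with 51 and 27 reads on the 5p and 336 and 1018 reads on the 3p arm. Its 5p share was 13.2% at 63 d and 2.58% at 98 d. In miR-377 of the DLK1-DIO3 region the 5p share was 51.6% (38.7 to 64.2) at 63 d and 21.5% (13.1 to 32.2) at 98 d. It was 89.3% and 68.5% in miR-193a, 95.5% and 90.3% in miR-145 and 96.8% and 93.0% for miR-181a with the 3p arm of the hairpin on chromosome 1. The 5p sequence of miR-181a is also listed at the hairpin on chromosome 10, so this share is not that of a single hairpin. In miR-145, a smooth muscle miRNA, the change came with 680 and 900 reads on the 5p and 32 and 97 reads on the 3p arm.

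Towards the 5p arm the largest change was in mir-4331, with 28 and 66 reads on the 5p and 19 and 14 reads on the 3p arm. MiR-99a had 255 and 867 reads on the 5p and 163 and 190 reads on the 3p arm, and its 5p share was 61.0% (56.1 to 65.7) at 63 d and 82.0% (79.6 to 84.3) at 98 d. In miR-30b, miR-26b and miR-127 the change rested on a rare arm, with 35 and 43 reads, 18 and 20 reads and 8 and 17 reads. The arm with more reads changed in 2 hairpins, miR-377 and miR-423. In miR-377 the arms were near equal at 63 d, with 33 reads on the 5p and 31 on the 3p arm. The interval of its 5p share there was 38.7 to 64.2, so which arm was the more abundant at 63 d is uncertain. MiR-423 had a 5p share of 39.9% and 52.3%, with a fold of 0.491 (0.468 to 0.515) for miR-423-3p beside 0.812 (0.772 to 0.856) for miR-423-5p.

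Arms also lay apart in families under the 2-fold limit. The 5p to 3p ratio changed 1.69-fold in miR-151 and 1.72-fold in its relative miR-28. MiR-151-5p had a fold of 1.81 (1.74 to 1.88) beside 1.07 (1.01 to 1.13) for miR-151-3p, and miR-28-5p 0.848 (0.725 to 0.996) beside 0.493 (0.458 to 0.531) for miR-28-3p. In the endothelial miR-126 the fold was 1.78 (1.72 to 1.83) on the 5p and 1.25 (1.20 to 1.30) on the 3p arm. MiR-199b-5p, known from fibroblasts, had 1064 and 3709 reads and a fold of 1.99 (1.86 to 2.13), while miR-199a-3p, the 3p sequence of all miR-199 hairpins, had 1.01 (0.965 to 1.05). The ratio in the miR-199b hairpin lay just inside the limit, at 1.97, and that of miR-1307 just past it, at 2.04.

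The fold went with the GC content of the mature miRNA. Of the 225 names with at least 100 RPM in both libraries, the 56 under 40% GC had a median fold of 1.51, the 74 from 40% to under 50% had 1.11, the 59 from 50% to under 60% had 0.911 and the 36 at 60% or more had 0.662. Of the 10 names that were at least 2-fold higher 9 had under 40% GC, among them miR-1 (28.6%), miR-450b-5p (27.3%), miR-374a-5p (27.3%) and miR-340 (27.3%), and miR-195 had 42.9%. MiR-340 had 469 and 1648 reads and a fold of 2.01 (1.81 to 2.23), or 1.86 with TMM scaling, eca-miR-590-3p 125 and 512 reads and 2.34 (1.92 to 2.87), and miR-335, just under the limit, 294 and 1004 reads and 1.95 (1.71 to 2.23). Of the 8 at least 2-fold lower 7 had 50% GC or more, and oan-let-7e-5p had 31.8%. MiR-296-3p (66.7% GC) had 308 and 182 reads and a fold of 0.337 (0.279 to 0.407), and oan-miR-1386 and mir-7641-2-p3 had 0.446 and 0.464. Short of the limit lay mmu-miR-92a-3p and mir-1285-p5, each near 0.50, and bta-miR-2478 at 0.535. Over the 225 names GC percent and log2 fold had a Pearson correlation of -0.545 and a Spearman correlation of -0.576, which describe 1 pair of libraries.

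**Figure D5:**
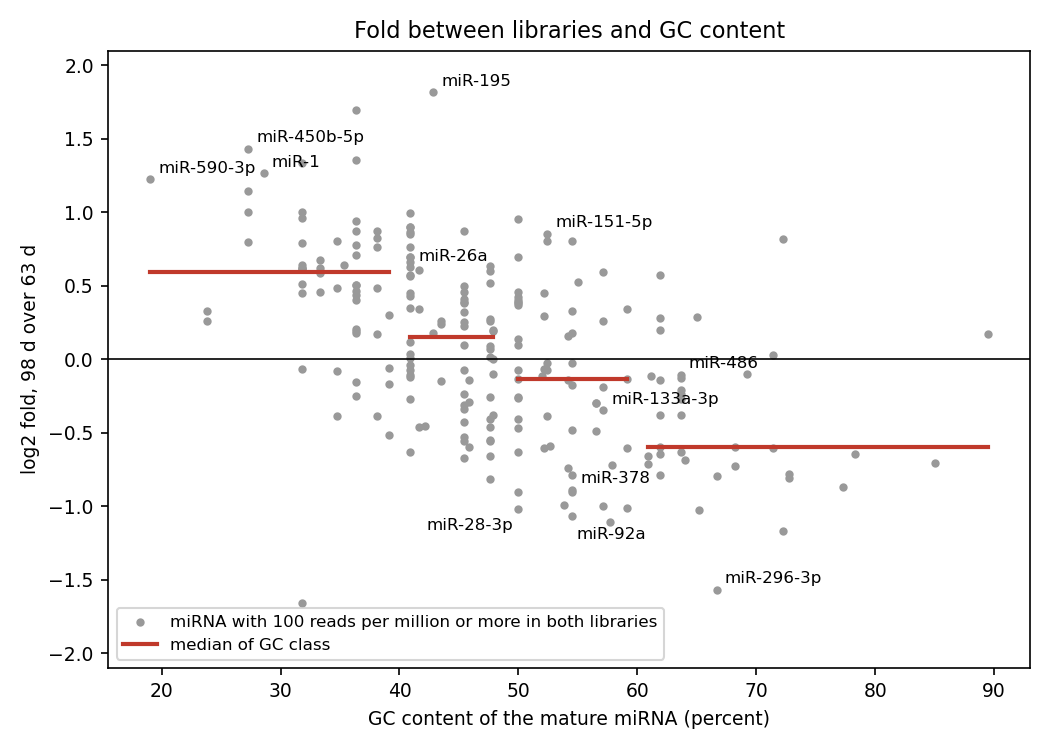
GC content of the mature miRNA in percent (x axis) and log2 fold at 98 d over 63 d (y axis) for 225 names with at least 100 RPM in both libraries. Red lines are the median log2 fold of 4 GC classes, which correspond to folds from 1.51 under 40% to 0.662 at 60% and over.

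The part of base composition in the folds was not tested. A linear fit of log2 fold on GC over 476 names had a slope of -0.28 per 10 percentage points, and the fold was adjusted by it in an alternative chosen after the data were seen. The 5p names of the miR-374 list then had 1.25, miR-26 1.30, miR-10 1.34 and miR-148 (3p) 1.36, and miR-1 had 1.63 and miR-208b 1.44, all short of the limit for their kind. Short of 2-fold were then also miR-450b-5p with 1.78, miR-450a with 1.82, miR-374a-5p with 1.46, miR-340 with 1.32 and eca-miR-590-3p with 1.31, while miR-450c-5p had 2.02. The 5p names of the miR-450 list had 1.80, of miR-15 1.68, of miR-151 1.87 and of miR-199 1.65, and miR-195 had 3.16, all past it. The 3p names of miR-378 had 0.614, of miR-17-92 0.594 and of DLK1-DIO3 0.645, which were past it too, while miR-92a, at 0.536, miR-127, at 0.607, miR-28-3p, at 0.507, miR-423-3p, at 0.679, mir-7641-2-p3, at 0.606, and oan-miR-1386, at 0.707, were not. Of the 51 names that were higher and the 36 that were lower, 33 and 22 were called again.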

How the data were processed

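Small RNA of pooled psoas major RNA was sequenced with the TruSeq small RNA kit on a HiSeq instrument. The authors processed the reads with ACGT101-miR 4.2 against miRBase 20.0. The authors deposited, per hairpin arm, an expected count (isoforms summed, shared reads split between hairpins) and the plain counts of copies of its representative read, both without normalization. The 161 d library was not analysed here.

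Each name was counted at the hairpin listed in both libraries (with most reads in ties), as reads per 1000000 counted reads (RPM), over names with at least 20 reads. Folds and shares carry exact 95% intervals for counting error, which treat reads as independent molecules. Limits were 2-fold for names and arm ratios and 1.5-fold for families. Chromosomes were read from the RefSeq accessions in the files, whose versions are those of Sscrofa10.2. No genome was used, and no RefSeq miRNA sequences were at hand.

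Named miRNAs are the 12 largest and 12 smallest folds over 100 RPM in both libraries, the 10 most abundant, the main and most extreme members of each family and cluster described, the 5 largest changes of arm ratio each way and the most abundant member of a list. The miRNAs of liver and gut beside miR-122, miR-124a and mir-2904 were named after their values were seen. The members and lists were chosen with earlier results of these data known. The intervals were tested on simulated data. Computations ran in Python 3.11.15 (scipy 1.17.1, pandas 2.3.3, numpy 2.4.6, figures with matplotlib 3.10.9), and edgeR 4.0.16 and DESeq2 1.42.0 in R 4.3.3 for scaling factors only. Alternatives were other scalings, minimums, hairpin rules, cluster gaps, reads without mapping error and, added after seeing the data, an adjustment for GC content.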

Additional observations from a re-analysis of the deposited data

Results flagged for a closer look

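The files also hold predicted hairpin arms that no known miRNA name covers, and these were left out of the comparison. Summed over all such arms, they had 4277 reads at 63 d (0.292% of the reads in the file) and 5970 reads at 98 d (0.247%). They were drawn to attention because they lie outside the main measurement. Of these, 215 arms were listed at 63 d, 393 at 98 d and 96 in both, and 45 had at least 20 reads over both libraries. The largest arm listed in both had 1724 reads at 63 d and 1419 at 98 d, a fold of 0.47, and the next had 473 and 341 reads, a fold of 0.41. The arm with most reads at 98 d had 1508 there and was not listed at 63 d, which was taken as 0 reads. No test was made of these differences, because there is 1 library per age.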

How the results depend on the processing

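No paired analysis was possible because each age had 1 library, and for the same reason no replicate could be left out. The counts of 51 names higher and 36 lower became 152 and 104 without a minimum and with a pseudocount of 1 RPM, and 20 and 13 with a minimum of 200 reads. With that minimum on each arm 3 of 15 hairpins were left with an arm ratio changed 2-fold. After adjustment for GC content, chosen after seeing the data, 8 families by arm instead of 16 were at least 1.5-fold higher, 7 of them among the 16. By construction a higher minimum leaves fewer names, and for the other shifts the cause was not tested. Scaling by DESeq2's median of ratios gave 45 names higher and 48 lower, TMM gave the same counts, and leaving miR-133a-3p out of the total gave 44 and 52. These 3 scalings lower all folds by a common factor, so that the 36 lower names stay lower by construction. Summing all hairpins of a name gave 61 and 29, and reads without mapping error gave 43 and 32. Counts of families lower and of clusters stayed within 1.5 times of the main values under all alternatives run. Single folds under the alternatives were followed for a part of the named miRNAs and for the families. Of those past their limit, none crossed equality in an alternative that gave it a value. The name bta-let-7a-5p, with a mapping error in every read, had no value from reads without mapping error. The miRNAs of liver and gut, and some other named miRNAs past the limit, were not followed singly. Depth limits names with few reads, whose intervals are wide, and rare arms. Differences between pigs of 1 age were not measured.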
